A study of Mus musculus with 6 samples.

Results

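Voltage-gated sodium channels are built from a large pore-forming alpha subunit, which opens when the membrane depolarises and carries the fast upstroke of the action potential, and from small auxiliary beta subunits, which set how fast the channel opens and closes and how much of it reaches the surface. The 7 subunit genes described here were taken by symbol from a table of 46932 mouse genes: the alpha subunits Scn1a, Scn3a, Scn8a and Scn9a and the beta subunits Scn2b, Scn3b and Scn4b. All 7 were in the table, and 5 of them were above the filter for testing. Another 5 subunits of the same family, Scn2a (listed under its older symbol Scn2a1), Scn4a, Scn7a, Scn10a and Scn11a, are given beside them. As background, islet endocrine cells are electrically excitable: glucagon-secreting alpha cells and somatostatin-secreting delta cells use sodium channels in their action potentials, whereas in mouse beta cells much of the sodium current is inactivated at the resting potential and calcium channels carry most of the spike.

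The libraries came from adult mice that carried an mCherry reporter in the nucleus under an Ins1 promoter (mIns1-H2b-mCherry), Sst-cre and a floxed YFP allele, so that insulin-producing cells are red and delta cells and their descendants are yellow. The groups, 2 libraries each, were separated by cell sorting. They were transdifferentiated cells (positive for both the mCherry and the YFP label), beta cells and delta cells. All groups carry all 3 alleles. Each library is a pool of 10 to 12 animals of 1 sex, 1 male and 1 female pool per group, and the YFP label marks cells in which Cre was active at any time, not only at the time of sorting. Islets were kept overnight in 5.5 mM glucose before sorting. The labels also give 10% serum and 0.25% trypsin for all libraries. Levels are given as RPKM, a read count divided by gene length and library depth, which allows genes of different length to be compared.

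The sorted populations carried the markers of their labels, but markers of other cell types were present too, which limits the results. Sst, the delta-cell hormone, was at 12842 and 12933 RPKM in transdifferentiated cells, 71.1 and 86.8 RPKM in beta cells and 49770 and 58480 RPKM in delta cells (male and female pool). Markers of alpha cells were present in the delta libraries: the summed level of 4 markers (Gcg, Irx1, Irx2, Ttr) was 1794 and 2588 RPKM in transdifferentiated cells, 457 and 637 RPKM in beta cells and 15135 and 16504 RPKM in delta cells, and all 4 were lower in transdifferentiated than in delta cells. The summed level of Ppy and Pyy, hormones of PP cells, was 11877 and 12041 RPKM in transdifferentiated cells, 802 and 558 RPKM in beta cells and 36498 and 37076 RPKM in delta cells. The summed level of the acinar transcripts Cpa1, Ctrb1, Cela1, Pnlip and Prss2 was 2071 and 137 RPKM in transdifferentiated, 7560 and 286 RPKM in beta and 684 and 507 RPKM in delta libraries. The part of alpha, PP and acinar cells in the subunit levels was not tested, and in sorted bulk RNA fewer cells of a type and less RNA per cell cannot be told apart. The denominators of the RPKM values, worked out from the size of 1 read, were 12.5 and 10.9 M reads in transdifferentiated, 21.6 and 20.5 M in beta and 17.0 and 15.7 M in delta libraries. Ins1 and Ins2 together took 22.4% and 23.8% of the summed RPKM in transdifferentiated, 52.5% and 45.2% in beta and 0.385% and 0.458% in delta libraries. The median log2 fold change over all 13022 genes tested was 0.32 in transdifferentiated against beta cells, -0.03 in transdifferentiated against delta cells and -0.36 in beta against delta cells, and it was within 0.02 of 0 after median-of-ratios scaling.

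Scn9a, the alpha subunit best known from pain-sensing neurons, had the highest level among the voltage-gated subunits examined in transdifferentiated cells (chromosome 2, 66480080 to 66634962, minus strand, GRCm38). It was at 9.46 and 9.33 RPKM in transdifferentiated cells, 1.05 and 1.84 RPKM in beta cells and 13.3 and 13.0 RPKM in delta cells, from 288 to 2873 reads per library. The 3 groups did not overlap. The mean in transdifferentiated cells was 6.51 times that in beta cells, and the log2 fold change was 2.11 (SE 0.17, limma adjusted p = 2.74e-04). Log2 fold changes here and below are on the log2(RPKM + 1) scale, on which changes of low genes come out too small. They are therefore not the log2 of the ratio of means. Against delta cells the log2 fold change was -0.44 (95% interval -0.84 to -0.05), with an adjusted p of 0.144 that did not pass the threshold of 0.05. It did pass when the beta libraries or either 1 of them were left out of the fit (adjusted p between 0.0215 and 0.0239), with the fold change as before.

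Scn3a, an alpha subunit that is prominent in the developing brain and is found in adult islets, lay close behind (chromosome 2, 65457118 to 65567627, minus strand). It was at 8.08 and 6.55 RPKM in transdifferentiated cells, 0.480 and 0.447 RPKM in beta cells and 11.6 and 9.58 RPKM in delta cells. Beta cells were low in both pools, with 129 and 114 reads in their deeper libraries against 1262 and 889 reads in transdifferentiated cells. The transdifferentiated mean was 15.8 times the beta mean (log2 fold change 2.5, SE 0.15, adjusted p = 1.53e-04). It was 0.691 times the delta mean, with a log2 fold change of -0.48 (95% interval -0.83 to -0.13, adjusted p = 0.086).

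Scn8a, the alpha subunit of nodes of Ranvier and axon initial segments, had another order of levels (chromosome 15, 100869858 to 101045938, plus strand). It was at 4.42 and 4.40 RPKM in transdifferentiated cells, 1.22 and 1.49 RPKM in beta cells and 4.01 and 3.54 RPKM in delta cells. Transdifferentiated libraries were the highest in both pools and beta libraries the lowest. The transdifferentiated mean was 3.25 times the beta mean (log2 fold change 1.20, SE 0.12, adjusted p = 6.51e-04). Transdifferentiated and delta cells differed by 0.18 on the log2 scale (95% interval -0.12 to 0.48, adjusted p = 0.42), which leaves room for a difference of either sign.

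Scn1a, the main alpha subunit of inhibitory interneurons, was at the limit of detection, with 1 and 0 reads in transdifferentiated, 0 and 1 in beta and 3 and 5 in delta libraries. In RPKM that is at most 0.0286. Scn1a lies 39.2 kb from Scn9a in a group of alpha subunit genes on chromosome 2 that also holds Scn3a, Scn2a and Scn7a. Of these neighbours, Scn7a had 1 to 8 reads per library and Scn2a 29 and 26 reads in transdifferentiated, 2 and 1 in beta and 90 and 71 in delta libraries. Scn2a was thus at 0.182 and 0.187 RPKM in transdifferentiated cells, 0.00728 and 0.00384 RPKM in beta cells and 0.417 and 0.356 RPKM in delta cells. Genes of the same cluster were therefore at very unequal levels in 1 library: in the male delta library Scn9a had 2873 reads and Scn1a 3.

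**Figure D1:**
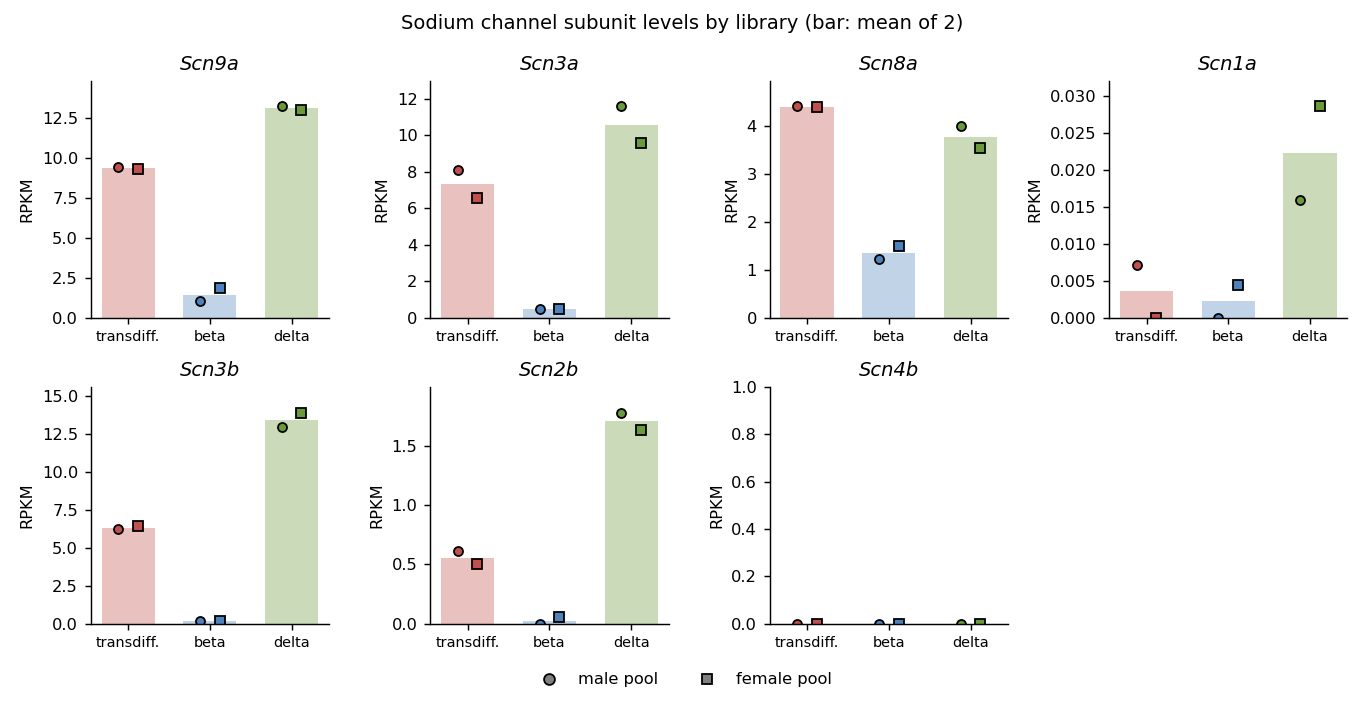
RPKM of the 7 subunits in each library: circles are male pools, squares female pools and bars the mean of the 2 libraries, with a separate axis from 0 for each gene. Scn9a, Scn3a, Scn8a, Scn3b and Scn2b are lowest in beta cells, Scn1a has at most 5 reads in any library, and Scn4b is at 0 throughout.

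Scn3b, a beta subunit that associates with alpha subunits without a covalent bond (chromosome 9, 40269217 to 40291618, plus strand), was at 6.23 and 6.43 RPKM in transdifferentiated cells, 0.159 and 0.194 RPKM in beta cells and 13.0 and 13.9 RPKM in delta cells. The groups were well apart, and the pools of each group were close together. Transdifferentiated cells had 35.9 times the beta mean (log2 fold change 2.64, SE 0.11, adjusted p = 5.73e-05) and 0.471 times the delta mean (log2 fold change -0.98, SE 0.11, adjusted p = 0.0031). Both calls held without any 1 library and after scaling, where the log2 fold changes were 2.48 and -0.94.

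Scn2b, which is joined to alpha subunits by a disulfide bond, was lower throughout (chromosome 9, 45117782 to 45130070, plus strand). It was at 0.612 and 0.503 RPKM in transdifferentiated cells (35 and 25 reads), 0 and 0.0536 RPKM in beta cells (0 and 5 reads) and 1.78 and 1.64 RPKM in delta cells (138 and 117 reads). Scn2b passed the filter of 1 RPKM in 2 libraries through its delta libraries alone, so it could be tested only because it was high there. Its log2 fold change was 0.60 in transdifferentiated against beta cells (SE 0.14, adjusted p = 0.011) and -0.80 in transdifferentiated against delta cells (SE 0.14, adjusted p = 0.013). The first call was lost without beta replicate 1 (adjusted p = 0.058), and the second with a pseudocount of 0.1 (adjusted p = 0.077), without transdifferentiated replicate 2 (adjusted p = 0.061) and without delta replicate 1 (adjusted p = 0.058). Scn4b, the other disulfide-linked beta subunit, has its gene 8.32 kb from that of Scn2b and had 0 reads in all 6 libraries. A count of 0 allows up to 3 reads, which for Scn4b is between 0.0279 and 0.0552 RPKM depending on the library.

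Promoter sequence was at hand for 5 of the 7 subunits, from RefSeq on GRCm38.p6, as the 250 bases before and 50 after a start site; Scn3a and Scn3b had no entry. Those of Scn9a, Scn8a, Scn2b and Scn4b are shown because they range from few to many CpGs at the start. They are written 5′ to 3′ on the strand of the gene, with CpG dinucleotides in capitals.
Scn9a, chr2:66634913-66635212, minus strand: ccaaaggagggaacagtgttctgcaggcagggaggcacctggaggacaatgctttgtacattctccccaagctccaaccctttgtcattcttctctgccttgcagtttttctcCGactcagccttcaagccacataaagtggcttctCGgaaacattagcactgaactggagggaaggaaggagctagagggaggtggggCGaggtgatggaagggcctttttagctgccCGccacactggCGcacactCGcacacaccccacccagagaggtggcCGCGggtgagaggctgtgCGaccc
Scn8a, upstream start, chr15:100870395-100870694, plus strand: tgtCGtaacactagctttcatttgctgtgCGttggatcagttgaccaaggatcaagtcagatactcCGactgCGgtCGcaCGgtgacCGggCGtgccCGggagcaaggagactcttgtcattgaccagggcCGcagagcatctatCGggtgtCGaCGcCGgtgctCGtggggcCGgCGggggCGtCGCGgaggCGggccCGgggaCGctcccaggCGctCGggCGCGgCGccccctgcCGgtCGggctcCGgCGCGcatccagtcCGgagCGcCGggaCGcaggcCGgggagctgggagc
Scn2b, chr9:45117626-45117925, plus strand: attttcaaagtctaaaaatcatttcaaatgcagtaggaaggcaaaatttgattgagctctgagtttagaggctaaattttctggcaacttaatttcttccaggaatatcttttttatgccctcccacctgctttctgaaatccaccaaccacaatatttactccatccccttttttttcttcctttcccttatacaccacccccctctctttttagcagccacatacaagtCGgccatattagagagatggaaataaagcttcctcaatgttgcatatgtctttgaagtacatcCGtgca
Scn4b, chr9:45138374-45138673, plus strand: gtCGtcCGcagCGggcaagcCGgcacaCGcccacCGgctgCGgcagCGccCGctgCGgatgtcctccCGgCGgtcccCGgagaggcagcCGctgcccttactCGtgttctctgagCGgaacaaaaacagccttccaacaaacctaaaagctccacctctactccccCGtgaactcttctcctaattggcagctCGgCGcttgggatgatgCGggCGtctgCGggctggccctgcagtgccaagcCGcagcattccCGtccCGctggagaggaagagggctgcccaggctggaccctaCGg
Scn8a, present in all 3 populations, had 38 CpGs in this window and 12 at a second start further downstream, and Scn4b, at 0 reads, had 26. Scn9a had 9 and Scn2b 2, where the median over 32851 promoters was 7. Both strands were searched for the TATA box (TATAAA, in 13.6% of all promoters), the CCAAT box (its 5 letters, 37.4%), the GC box (GGGCGG, 35.7%) and the left part of the RE1 element that the repressor Rest binds (TTCAGCACC, 0.371%). Of the 5 subunits, Scn4b and Scn1a held a CCAAT box and no other match was found. Rest itself, known as a repressor of neuronal sodium channel genes outside neurons, was below the filter, at 0.265 and 0.279 RPKM in transdifferentiated, 0.0770 and 0.0406 RPKM in beta and 0.530 and 0.556 RPKM in delta cells.

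Between beta and delta cells all 5 subunits tested were lower in beta cells. The log2 fold change was -3.62 for Scn3b (SE 0.11, adjusted p = 5.01e-06), -2.98 for Scn3a (SE 0.15, adjusted p = 2.01e-05), -2.55 for Scn9a (SE 0.17), -1.40 for Scn2b (SE 0.14) and -1.02 for Scn8a (SE 0.12), the last 3 with adjusted p between 6.11e-05 and 7.17e-04. Of all genes tested, 46.3% were lower in beta cells, 11.7% were higher and 57.9% were called in either direction, so the count alone does not set the family apart. In transdifferentiated against beta cells the same 5 were higher, where 42.5% of all genes were called higher, 8.46% lower and 51.0% in either direction. In transdifferentiated against delta cells 2 of the 5 were lower, Scn3b and Scn2b, where 7.20% of all genes were called lower, 5.53% higher and 12.7% in either direction. After scaling, 3624 of 13022 genes were called higher and 3395 lower in transdifferentiated against beta cells, and 3623 higher and 3865 lower in beta against delta cells. All 10 calls of the 5 subunits in these comparisons kept their direction and passed, with log2 fold changes in transdifferentiated against beta cells of 2.48 for Scn3b, 2.29 for Scn3a, 1.83 for Scn9a, 0.93 for Scn8a and 0.55 for Scn2b. Scn8a and Scn9a were at 1 RPKM or more in all 6 libraries, whereas Scn3a and Scn3b passed the filter through the transdifferentiated and delta libraries and Scn2b through the delta libraries. The comparisons share libraries and are not independent of each other.

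**Figure D2:**
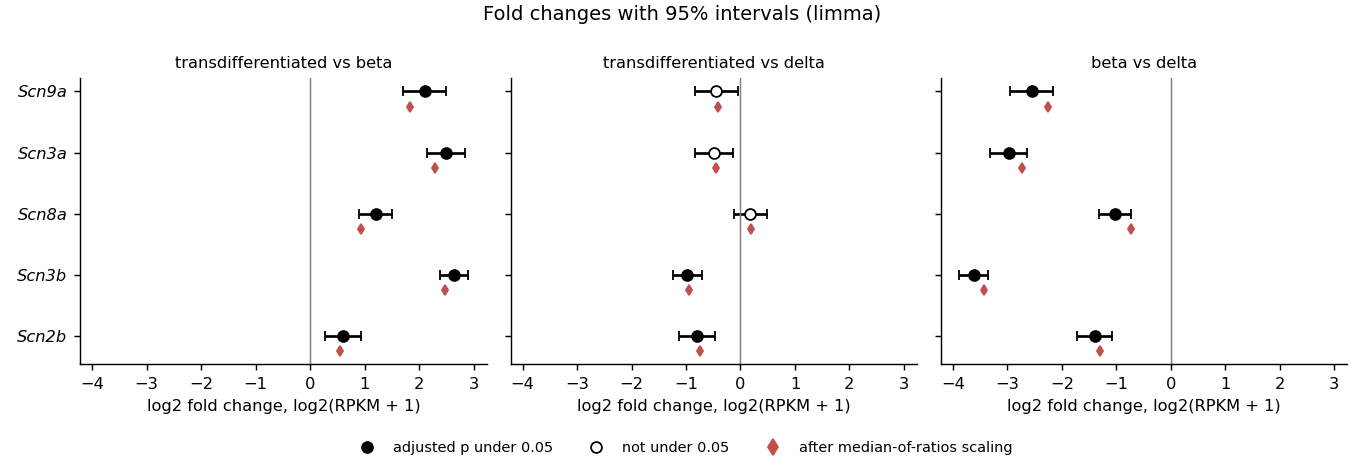
Log2 fold changes of the 5 subunits tested, first group over second, with 95% intervals from limma; filled points passed the threshold and diamonds are values after median-of-ratios scaling. All 5 lie above 0 in transdifferentiated against beta cells and below 0 in beta against delta cells, and in transdifferentiated against delta cells Scn8a is the one subunit above 0, with an interval that spans it.

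The make-up of the family within a library does not depend on scaling, and it differed between the populations. Summed over 9 alpha subunits, transdifferentiated cells held 22.8 and 21.1 RPKM, beta cells 2.82 and 3.89 RPKM and delta cells 30.2 and 27.2 RPKM. Scn9a took similar shares of this sum, 41.5% and 44.3% in transdifferentiated, 37.1% and 47.4% in beta and 43.9% and 47.9% in delta libraries. Scn3a was the second subunit in transdifferentiated and delta cells, and Scn8a in beta cells or, in the male pool, the first. Scn3a took 35.4% and 31.1% in transdifferentiated, 17.0% and 11.5% in beta and 38.4% and 35.2% in delta libraries. Scn8a took 19.4% and 20.9% in transdifferentiated, 43.2% and 38.4% in beta and 13.3% and 13.0% in delta libraries. The 3 groups did not overlap in the share of Scn8a. With 2 libraries a group, an exact permutation test of 2 against 2 cannot give a two-sided p below 0.333, so shares are given without a test.

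Scn3b exceeded Scn2b in every library: the ratio of their RPKM was 10.2 and 12.8 in transdifferentiated and 7.27 and 8.51 in delta libraries. In beta cells it was 3.62 in the female library, from 5 reads of Scn2b, and could not be formed in the male library, where Scn2b had 0 reads.

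**Figure D3:**
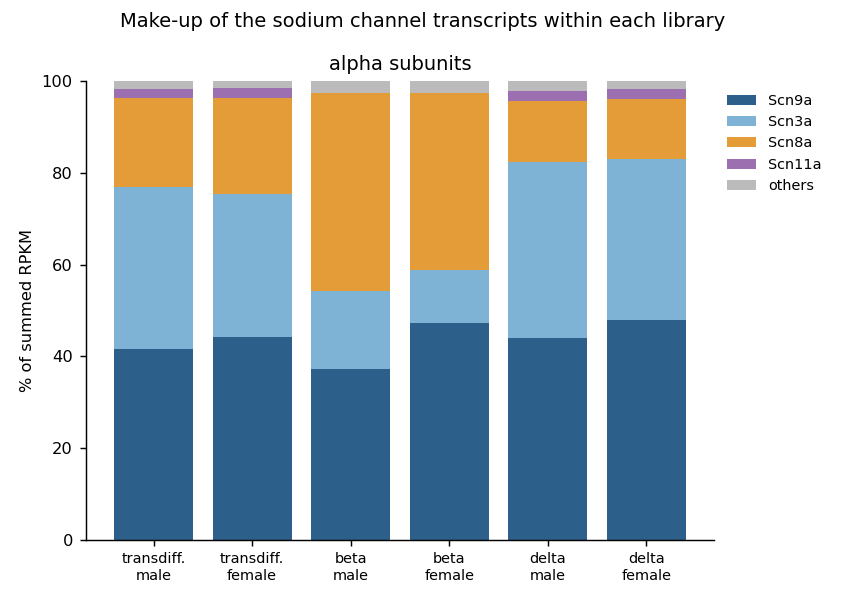
Share of each subunit in the summed RPKM of 9 alpha subunits, 1 bar per library. Scn9a holds 37.1% to 47.9% in all 6 libraries, while Scn8a holds 38.4% to 43.2% in beta cells and 13.0% to 20.9% in the others.

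Of the remaining subunits, Scn11a, an alpha subunit of pain-sensing neurons that resists tetrodotoxin, was below the filter but not absent. It had 34 and 31 reads in transdifferentiated, 0 and 0 in beta and 69 and 56 in delta libraries, that is 0.465 and 0.487 RPKM, 0 and 0 RPKM and 0.697 and 0.612 RPKM. Against the level that 3 reads would give in each beta library, the mean was at least 19.4-fold higher in transdifferentiated and at least 26.7-fold higher in delta cells. Scn4a, the skeletal muscle subunit, had 5 to 17 reads per library, and its delta libraries lay both above and below the beta libraries. Scn10a had 0 reads. Of 4 markers of glia and neurons, Sox10, S100b and Prph were at 0.105 RPKM or less in every library, and Snap25 was not low. The summed level of the 4 was 41.3 and 43.8 RPKM in transdifferentiated, 15.3 and 19.8 RPKM in beta and 28.5 and 27.9 RPKM in delta libraries. Nearly all of that sum was Snap25, a vesicle fusion protein that endocrine cells also make, which was higher in transdifferentiated than in beta cells by 1.25 (adjusted p = 7.70e-04) and than in delta cells by 0.57 (adjusted p = 0.0407), the second call lost without any 1 of the 4 libraries. The part of glia and neurons in the subunit levels was not tested.

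The level of a transdifferentiated library can be placed between those of beta (0%) and delta cells (100%) of the same pool. Scn9a stood at 68.9% and 66.9%, Scn3a at 68.5% and 66.8%, Scn3b at 47.4% and 45.4% and Scn2b at 34.3% and 28.4%, male and female pool. Scn8a stood beyond the delta level, at 114% and 142%, but its difference from delta cells did not pass (log2 fold change 0.18, limma adjusted p = 0.42). On the same scale Sst stood at 25.7% and 22.0%, Hhex, a delta-cell transcription factor, at 39.8% and 32.0%, and Gcg at 9.66% and 12.6%. Other genes stood at positions like those of Scn9a and Scn3a, among them the leak channel gene Nalcn at 67.1% and 58.8%. So did the beta-cell genes Ins1 at 73.7% and 60.3%, Ins2 at 72.3% and 57.3% and Ucn3 at 70.9% and 64.1%. For the beta-cell genes the scale runs from a high beta to a low delta level, and they were not near the delta level. Their transdifferentiated means were 56.5, 56.6 and 54.4 times the delta means and 0.325, 0.342 and 0.332 times the beta means. These positions are given without a test. In beta cells Scn3a was at 4.15% and 4.67% and Scn9a at 7.89% and 14.1% of the delta level, while Sst was at 0.143% and 0.148% and Gcg at 1.62% and 2.66% of it.

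**Figure D4:**
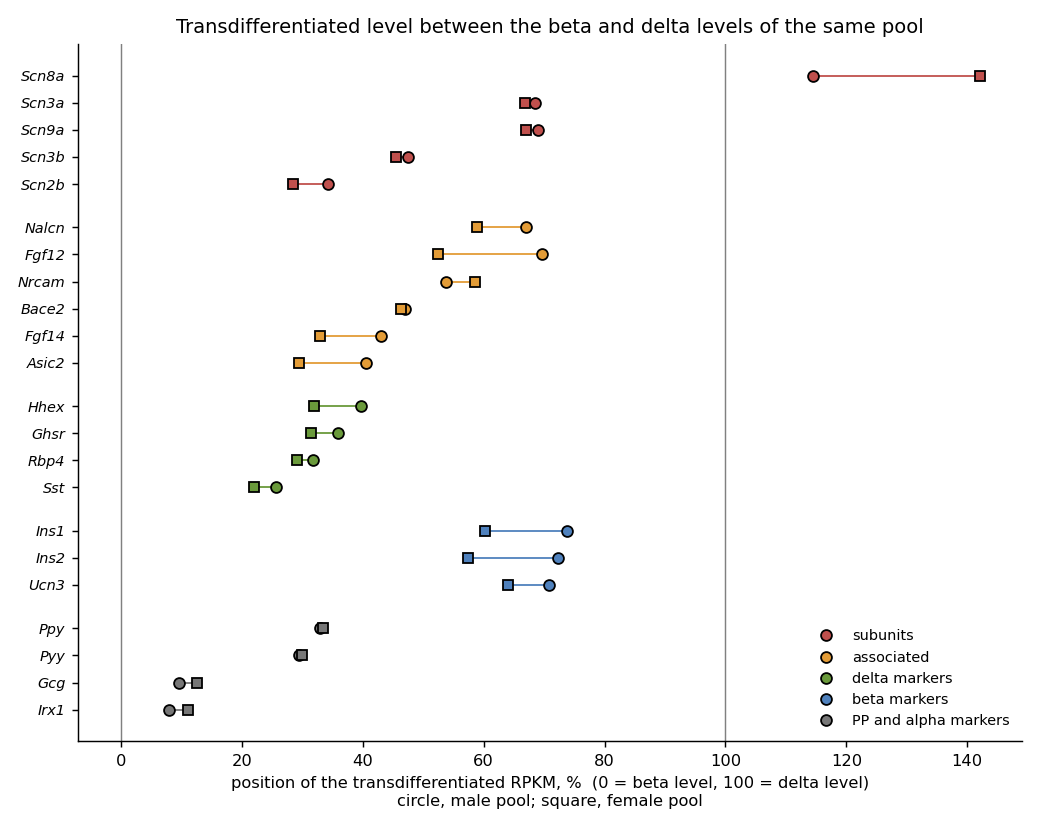
Position of the transdifferentiated level between the beta level (0%) and the delta level (100%) of the same pool, on linear RPKM, for subunits, associated genes and markers; circles are male and squares female pools. Scn9a and Scn3a lie at 66.8% to 68.9%, Scn8a beyond 100%, and Sst at 22.0% to 25.7%. The difference of Scn8a from delta cells did not pass the threshold. Genes other than the subunits were chosen after their values were seen.

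Proteins that bind and anchor sodium channels followed more than 1 pattern. The counts of these and the other associated genes are read against all genes tested, of which 42.5% were higher and 8.46% lower in transdifferentiated than in beta cells, 5.53% higher and 7.20% lower than in delta cells, and 11.7% higher and 46.3% lower in beta than in delta cells. Of 11 such genes (fibroblast growth factor homologous factors, ankyrins and adhesion partners) 9 were tested, and 3 were higher and 1 lower in transdifferentiated than in beta cells, a count that does not set the list apart from those shares. Fgf14, a cytoplasmic factor that binds the channel's tail and shifts its inactivation, was at 4.14 and 2.85 RPKM in transdifferentiated cells, 0.0111 and 0.0818 RPKM in beta cells and 9.63 and 8.48 RPKM in delta cells. Its log2 fold change was 2.09 against beta (SE 0.17, adjusted p = 2.92e-04) and -1.17 against delta cells (SE 0.17, adjusted p = 0.0068). Fgf12, of the same kind, was at 15.5 and 13.3 RPKM in transdifferentiated, 4.93 and 4.32 RPKM in beta and 20.1 and 21.5 RPKM in delta cells. It was higher than in beta cells by 1.45 log2 units (SE 0.12, limma adjusted p = 3.58e-04). Against delta cells it was at -0.50 (adjusted p = 0.045), a call lost after scaling (adjusted p = 0.071) and without any 1 of the 4 libraries. The third higher gene, the axonal anchor Ank3, was at 0.61 (adjusted p = 0.029) and lost its call after scaling (adjusted p = 0.11) and without any 1 library other than beta replicate 2.

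Nrcam, an adhesion molecule that helps to gather sodium channels at nodes of Ranvier, ran the other way from the subunits. It was at 2.55 and 2.46 RPKM in transdifferentiated cells, 4.95 and 5.49 RPKM in beta cells and 0.482 and 0.311 RPKM in delta cells. The groups did not overlap, and the pools were close to each other. Its log2 fold change was -0.83 in transdifferentiated against beta cells (SE 0.13, adjusted p = 0.0026), 1.33 in transdifferentiated against delta cells (SE 0.13, adjusted p = 0.0019) and 2.16 in beta against delta cells (SE 0.13, adjusted p = 4.43e-05). In beta against delta cells 1 anchoring gene was higher and 4 were lower: Fgf14 (-3.26), Fgf12 (-1.96), Fgf11 (-0.96) and Ank3 (-0.86).

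The list of 7 protease genes holds Bace1, known to cleave beta subunits, its relative Bace2, the sheddase Adam10 and components of gamma-secretase. Bace2 was at 131 and 136 RPKM in transdifferentiated cells, 236 and 243 RPKM in beta cells and 12.1 and 11.9 RPKM in delta cells. Its log2 fold changes were -0.84 in transdifferentiated against beta cells (SE 0.10, adjusted p = 9.41e-04) and 3.37 against delta cells (SE 0.10, adjusted p = 5.64e-05). Adam10 was higher in transdifferentiated than in beta cells by 0.85 (SE 0.15, adjusted p = 0.0045), and Bace1 by 0.60 (adjusted p = 0.0309, and 0.244 after scaling), a call also lost without any 1 transdifferentiated or delta library (adjusted p up to 0.122). Of the 7, 2 were thus higher and 1 lower in transdifferentiated than in beta cells, and 1 higher and 0 lower than in delta cells. After scaling 1 was higher and 3 lower than in beta cells (Bace2, Psen2 and Psenen). On that scaling 3624 of all 13022 genes were called higher and 3395 lower in the same comparison. With the pool as a block Ncstn was also lower than in delta cells (adjusted p = 0.0436). In beta against delta cells 2 were higher, Bace2 (4.20) and Psen2 (0.39), and 3 lower, Adam10, Bace1 and Ncstn (-0.85 to -0.69), of which Adam10 alone passed after scaling. The call of Psen2 (adjusted p = 0.0479) was lost without any 1 of the 6 libraries (adjusted p up to 0.303), and that of Bace1 without delta replicate 2 (adjusted p = 0.0547).

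Of 8 genes for trafficking and turnover of the channel, 4 were higher and 1 lower in transdifferentiated than in beta cells. Against delta cells 0 passed, and Calm2, Nedd4l and Fyn had limma adjusted p between 0.0655 and 0.165. The kinase Fyn was higher than in beta cells by 0.94 (SE 0.13, adjusted p = 0.0019) and Nedd4l, a ubiquitin ligase of sodium channels, by 0.70 (SE 0.11, adjusted p = 0.0026). Its relative Nedd4 was higher by 0.84 (adjusted p = 0.0099), a call lost without either transdifferentiated library (adjusted p up to 0.057). The fourth, the calmodulin gene Calm2, was at 0.48 (adjusted p = 0.0118) and at 0.08 after scaling (adjusted p = 0.645), and the lower gene was another, Calm3, at -0.47 (adjusted p = 0.0188). Both calls were lost without transdifferentiated replicate 1 (adjusted p = 0.078 for Calm2 and 0.114 for Calm3). In beta against delta cells 4 were lower, Fyn (-1.28), Nedd4 (-1.16), Nedd4l (-1.05) and Calm2 (-0.88).

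Of 9 leak, epithelial and acid-sensing channel genes, 5 were higher and 2 lower in transdifferentiated than in beta cells, and 0 higher and 1 lower than in delta cells. Nalcn, the pore of the sodium leak channel that sets the resting potential, was at 12.3 and 12.2 RPKM in transdifferentiated cells, 3.47 and 5.24 RPKM in beta cells and 16.7 and 17.0 RPKM in delta cells. It was higher than in beta cells by 1.33 (SE 0.16, adjusted p = 0.0012) and at -0.43 against delta cells (95% interval -0.82 to -0.04, adjusted p = 0.155). Its partners Unc80 and Unc79 were higher than in beta cells by 1.60 (SE 0.27, adjusted p = 0.0036) and 1.03 (adjusted p = 0.0092, and 0.056 without transdifferentiated replicate 2). Asic2, an acid-sensing channel, was at 4.75 and 3.94 RPKM in transdifferentiated, 0.283 and 0.149 RPKM in beta and 11.3 and 13.0 RPKM in delta cells. Its log2 fold change was 2.13 against beta (SE 0.14, adjusted p = 1.95e-04) and -1.30 against delta cells (SE 0.14, adjusted p = 0.0028). The fifth higher gene, the channel's partner Fam155a, was at 0.74 (adjusted p = 0.0227, and 0.125 after scaling) and was lower than in delta cells with the pool as a block. Its call against beta cells was lost without either transdifferentiated library (adjusted p up to 0.121). The lower genes were Asic1 (-0.45, adjusted p = 0.0104), a call lost without either transdifferentiated library (adjusted p up to 0.057), and the epithelial channel subunit Scnn1a (-0.44, adjusted p = 0.0282), lost without any 1 transdifferentiated or beta library (adjusted p up to 0.099). In beta against delta cells these last were the 2 higher genes, and 6 were lower, from Asic2 (-3.44) and Nalcn (-1.76) to Scnn1g (-0.54), which did not pass after scaling or without delta replicate 2 (adjusted p = 0.088).

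Of 5 tested genes of the sodium pump, 2 were higher in transdifferentiated than in beta cells, Atp1b2 (0.68, adjusted p = 0.019) and Atp1b1 (0.47, adjusted p = 0.034), and neither passed after scaling (adjusted p = 0.114 and 0.644) or without either transdifferentiated library or beta replicate 1 (adjusted p up to 0.126). In beta against delta cells Atp1b2 (-1.53), Fxyd2 (-1.02), Atp1b1 (-0.80) and Fxyd6 (-0.62) were lower, and after scaling Atp1b2 and Atp1b1. The calls of Fxyd2 and Fxyd6 were also lost without beta replicate 2 or delta replicate 2 (adjusted p up to 0.169). Of 4 sodium exchangers tested, 3 were higher than in beta cells. The largest was Slc24a2, a potassium-dependent sodium-calcium exchanger, at 19.9 and 19.6 RPKM in transdifferentiated, 5.98 and 9.66 RPKM in beta and 15.3 and 14.8 RPKM in delta cells (log2 fold change 1.27 against beta, SE 0.19, adjusted p = 0.0025). The sodium-calcium exchangers Slc8a1 (0.69, adjusted p = 0.037) and Slc8a2 (0.45, adjusted p = 0.029) did not pass after scaling (adjusted p = 0.199 and 0.235), nor without either transdifferentiated library or beta replicate 1. All 3 were lower in beta than in delta cells, by -1.40 for Slc8a2, -0.96 for Slc8a1 and -0.90 for Slc24a2, the call of Slc8a1 being lost without delta replicate 2 (adjusted p = 0.0543). Against delta cells Atp1b2 and Slc8a2 were lower, by -0.85 (adjusted p = 0.028) and -0.95 (adjusted p = 0.0064) on the log2 scale. The call of Atp1b2 was lost without any 1 of the 4 libraries (adjusted p up to 0.18) and that of Slc8a2 without delta replicate 2 (adjusted p = 0.059).

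**Figure D5:**
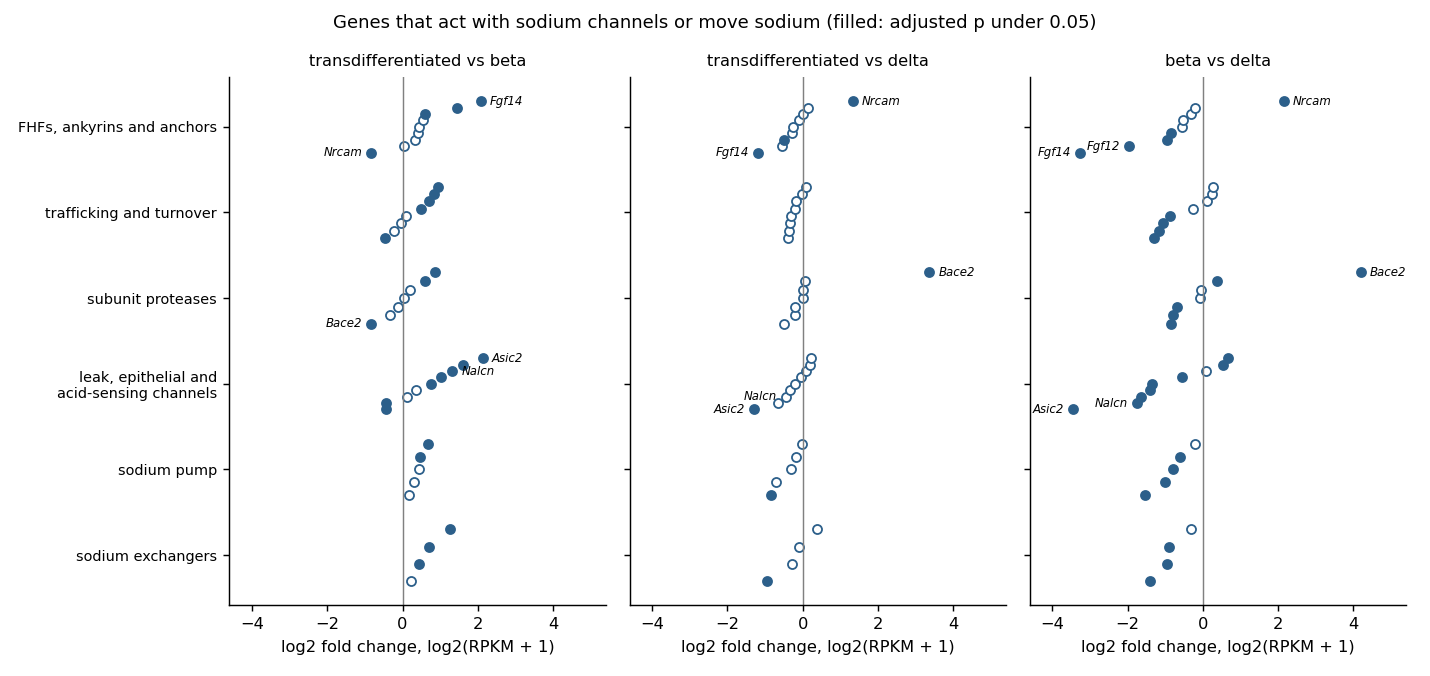
Log2 fold changes of the genes tested in 6 lists of channel partners and sodium transporters, first group over second; filled points passed the threshold and 6 genes are named where they stand out. Fgf14 and Asic2 are higher in transdifferentiated than in beta cells and lower than in delta cells, and Nrcam and Bace2 show the opposite signs.

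Genes whose profiles over the 6 libraries lay closest to a subunit were found by the Euclidean distance between centred log2(RPKM + 1) values. Predicted genes, clone names and pseudogene names were left out before the ranking. The nearest to Scn9a was Gbp9, a guanylate-binding protein, at a distance of 0.16, followed by Adam22 (0.25) and Zcchc11 (0.26). Nearest to Scn3a were Itgb2l (0.14), Akap17b (0.24) and the AMPA receptor subunit Gria2 (0.25). Scn8a lay closest to Tmem161b (0.083), the RNA-binding protein Hnrnpa2b1 (0.10) and Tgs1 (0.11). Scn3b lay closest to Ambp (0.25), Timp1 (0.27) and the potassium channel Kcnc2 (0.29). For Scn2b the nearest were Adgrb3 (0.083), Susd4 (0.11) and Ptgfrn (0.11). A small distance is easier to reach for a gene with small differences between libraries on this scale, such as Scn8a and Scn2b. Scn2b differs little on log2(RPKM + 1) because its levels are low, while its mean in delta cells was 63.8 times that in beta cells. The beta libraries held 0 and 5 reads of it.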

How the data were processed

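RNA from sorted islet cells was converted to libraries with the TruSeq RNA version 2 kit, per the labels' protocols. STAR 2.5, featureCounts, edgeR 3.14.0 and GRCm38.p4 are named in the submitters' processing notes, and the deposited table holds 1 RPKM value per gene symbol and library. Order, settings and strand handling are not given in the sources used here. No count model was run on these normalized values.

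The 27 symbols turned into dates were left out, and tests covered genes that reached 1 RPKM in 2 or more of the 6 libraries. Values were transformed to log2(RPKM + 1) and fitted in 1 model over 3 groups by limma 3.58.1 under R 4.3.3 (trended prior variance, two-sided tests, Benjamini-Hochberg adjustment over 13022 genes, threshold 0.05). The script was tested on simulated data. Replicate 1 is the male and replicate 2 the female pool; nothing names separate cultures beyond these pools, so p-values measure the spread between them. Per the labels' series text, 1 set of islets gave all populations, so the pools pair the libraries. The correlation of residuals from the group means was 0.47 between transdifferentiated and beta, 0.36 between transdifferentiated and delta and 0.24 between beta and delta libraries. A difference between the sexes shared by the groups would also raise these correlations, so they cannot show the pairing. A blocked fit, with the pool as a term, is among the alternatives.

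Reads per gene were worked out from exon lengths in GENCODE M21, matched to 44027 symbols: between 83.3% and 86.4% of values under 50 reads came out whole within 0.01 read. For Scn2b, Scn3b and Scn11a the length nearest to that of GENCODE was used at which all 6 libraries came out whole within 0.02 read. Limits from 0 reads cover counting error only. Scn9a shares 180 exon bases with a gene on the opposite strand, Gm13629, which was at 0.257 RPKM or less. Alpha subunits resemble each other in sequence, so a small part of their reads may be misplaced.

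The members and gene lists were chosen with earlier results of these data known. Named in the text are all members and, of each list, up to 4 genes past the threshold with the largest fold changes, and the 3 nearest profiles of each subunit tested. The other family genes and genes that complete a small count (Calm3, Psen2, Psenen, Fam155a, Asic1, Scnn1a, Scnn1g, Unc79, Ncstn) lie outside this rule where so placed and were chosen after their values were seen. Some genes of these lists are not reported here. The design description once gives alpha cells as the origin of the transdifferentiated population; the title and labels say delta cells, and these were followed.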

Additional observations from a re-analysis of the deposited data

How the results depend on the processing

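The alternatives were a pseudocount of 0.1, no filter or a filter at 0.3 RPKM, median-of-ratios scaling, the pool as a replicate block, a fit of only the 2 groups compared, and leaving out each library. Of the 5 subunits tested, 5 were called in beta against delta cells under every one of them, and 5 in transdifferentiated against beta cells under every one but the fit without beta replicate 1, which called 4 (without Scn2b). In transdifferentiated against delta cells the count of 2 became 1 with a pseudocount of 0.1 and 3 with only the 2 groups compared, and it was between 1 and 3 when 1 library was left out. With the pool as a replicate block the counts were 5 in transdifferentiated against beta cells, 2 in transdifferentiated against delta cells and 5 in beta against delta cells. The block changed no call of a subunit. Of all 13022 genes the block called 7022, 1925 and 7890 in the same comparisons, so a stable count alone does not set the family apart. Scn2b is in these counts although it passed the filter through its delta libraries alone. Over all genes, 6642 were called in transdifferentiated against beta cells but 4132 without transdifferentiated replicate 1, and 1657 in transdifferentiated against delta cells but 759 and 655 without transdifferentiated replicate 1 and 2 and 717 and 522 without delta replicate 1 and 2; these fits have fewer samples. No fold change of a subunit tested changed sign under these alternatives. With 10 reads over all libraries Scn1a was too shallow to compare.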
